A study of Homo sapiens with 2 samples.

Results

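Solute carrier genes are compared here between 2 RNA libraries made from spheroids of the line MDA-MB-231, which came from a human triple-negative breast adenocarcinoma. The genes were selected on measured values: a row of the deposited table of all genes was kept when it was protein-coding, its symbol was SLC followed by a number, and its normalized values in Control and TGS24 summed to at least 20. Of 375 protein-coding rows with such a symbol, 117 (31.2%) were kept, 251 had reads but fell short of the threshold, and 7 had no read. The Control group was 1 library of untreated spheroids of this line. The other group was 1 library of spheroids of the same line treated with TGS24, a compound known only by this code name, and the sources used here do not state its dose or treatment time. Per the labels' protocols, Trizol served for the extraction of total RNA, which was sequenced as paired reads. The series design asks about genes of the MAPK12 pathway under TGS24, and the carriers are outside that question. Each group held 1 library, so differences have no replicate check and no p-values, and every difference is one between these libraries, not between the conditions.

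Solute carriers are membrane proteins that move amino acids, sugars, ions, metals, nucleotides and vitamins across the plasma membrane or the membranes of organelles. Some let a solute flow down its gradient, and others couple the uphill movement of one solute to the gradient of another, often sodium, protons or chloride. In cancer cells, including breast lines, they are studied for the uptake of glucose and amino acids, the export of lactate and acid, and the supply of metals.

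Control held 8570620 reads and TGS24 held 16145098. The signal recognition particle RNA RN7SL1 made up 41.1% and 31.6% of them. The line's mesenchymal markers had reads in both libraries, from 72 in Control and 32 in TGS24 for LGALS1 to 11763 and 15785 for VIM, whose row is not the same in all deposited tables. Epithelial and luminal markers were between 0 and 24 reads. Among blood markers, HBB had 4860 and 10453 reads, HBA2 788 and 1502, and PTPRC 38 and 77. The part of blood RNA in the carriers' values was not tested. In bulk RNA, fewer cells that express a gene and less RNA per cell cannot be told apart.

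Reads on the 117 carriers came to 23971 in Control and 52702 in TGS24, that is, 0.280% and 0.326% of each library. Of protein-coding reads alone they were 0.678% in Control and 0.604% in TGS24, so the direction depends on the total used. A member had between 31 and 15508 reads over both libraries, with a median of 149, and 44 members had fewer than 100. Every member passed the filter of at least 20 reads used for the ratios. At the threshold, the values just inside were 20.9 for SLC25A6, 22.8 for SLC2A3 and 23.3 for SLC26A7, and those just outside were 19.9 for SLC7A1, 19.7 for SLC8A2 and 19.4 for SLC35A5. A sum also admits genes that are low in 1 library, and 15 members had a normalized value under 10 in either library, 3 in Control and 12 in TGS24. Of the 117 symbols, 2 belong to proteins that bind a carrier and are no carriers themselves, SLC9A3R1 (the scaffold NHERF1) and SLC4A1AP (kanadaptin).

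Ratios are log2 values of TGS24 over Control after TMM scaling, with a 95% interval for counting error. A gene was counted as higher or lower when it differed at least 2-fold and its interval left out 0. By this rule 13 of the 117 members (11.1%) were higher in TGS24 and 8 (6.84%) were lower. The same rule held for 12.7% of all 10080 tested genes in the higher direction and 6.31% in the lower. Among the 7450 protein-coding genes past the same threshold of values, 15.1% were higher and 6.62% were lower. The members' shares were thus near the background in both directions. Their median ratio was -0.07, against 0.00 for all tested genes. Ratios ran from -2.06 to 1.75, with 52 members above 0 and 65 below. The ratios went with the GC content of the exons in members and other genes alike. After each ratio was centred on the median of its GC class, 2 members (1.71%) were higher and 8 (6.84%) lower. Of protein-coding genes treated alike, 5.86% were higher and 6.24% lower. The members' higher share was then below the background, and the lower share stayed near it. Centred ratios stand beside each group and each call they end.

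**Figure D1:**
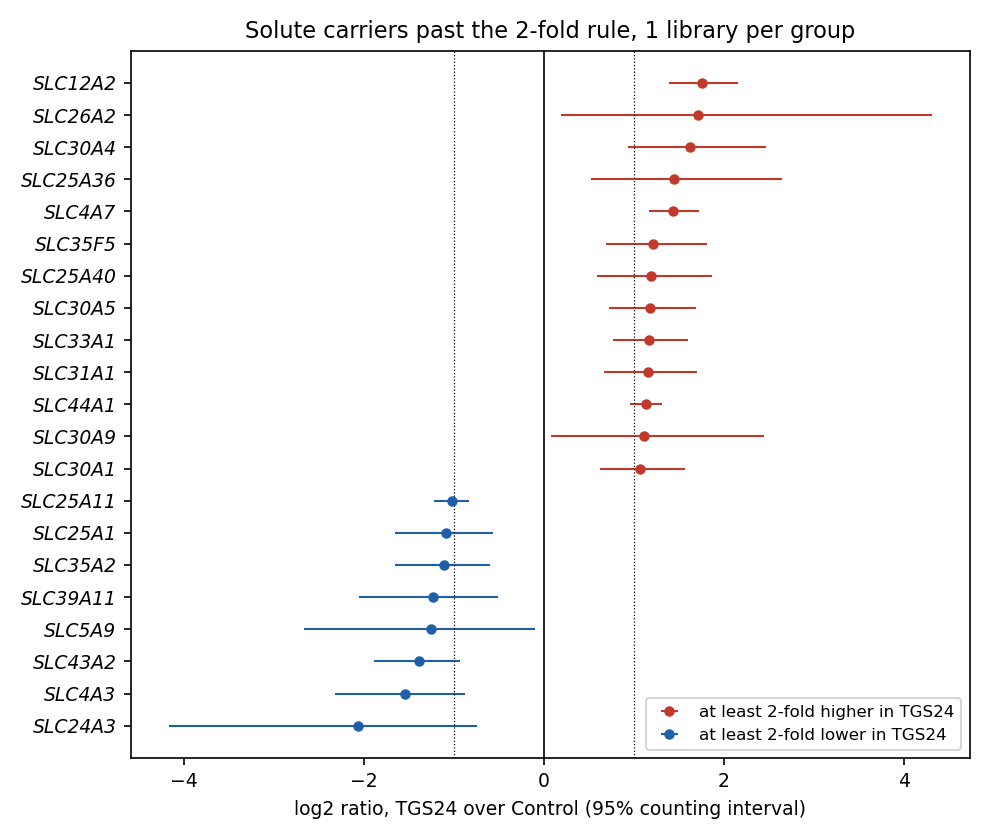
Log2 ratio of TGS24 over Control (x axis) for the 21 solute carriers past the 2-fold rule, with 1 library per group. Points are ratios, horizontal bars are 95% counting intervals and dotted lines mark a 2-fold difference. The 13 higher members run from 1.07 for SLC30A1 to 1.75 for SLC12A2, and the 8 lower members from -1.02 for SLC25A11 to -2.06 for SLC24A3.

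On a scale per exon length, the members covered a wide range. The median level was 1.27 reads per kilobase of exon and 1000000 library reads (RPKM) in Control and 1.17 in TGS24, and 49 members were under 1 in both libraries. SLC25A5, the ADP/ATP carrier ANT2 of the inner mitochondrial membrane, stood at 394 and 431 RPKM. It alone held 21.1% of the members' reads in Control and 19.8% in TGS24. SLC25A28 (mitoferrin 2, which brings iron into mitochondria) followed at 72.4 and 62.6. Next were SLC25A11 in Control, at 39.7 there and 19.9 in TGS24, and SLC38A2 (SNAT2, a sodium-coupled carrier of neutral amino acids) in TGS24, at 30.6 in Control and 51.7 in TGS24. In all, 10 members were over 10 RPKM in both libraries. Across the 117 members the log2 levels of the libraries had a Pearson correlation of 0.93, a description of points that share a library pair and the same annotation.

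**Figure D2:**
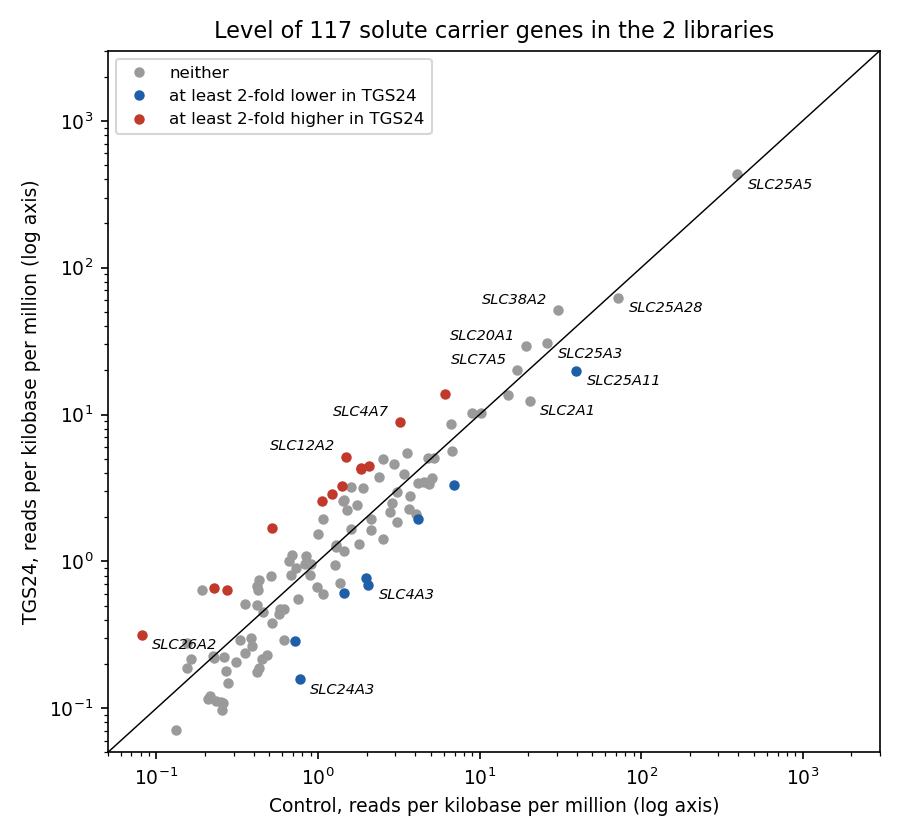
Level of each of the 117 solute carriers in Control (x axis) and TGS24 (y axis), in RPKM on log axes, with 1 point per gene and the line of equal levels. SLC25A5 lies far above the rest at 394 and 431, and the 21 members past the 2-fold rule lie off the line across the range of levels.

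Carriers of chloride, bicarbonate, sulfate, phosphate and calcium formed the largest group, with 23 members. In it 3 were higher, 2 were lower and 18 were neither, beside 15.1% higher and 6.62% lower among protein-coding genes. The median ratio was -0.36. After centring it was -0.15, with 1 member higher and 3 lower, beside 5.86% higher and 6.24% lower among protein-coding genes centred alike. SLC12A2 encodes NKCC1, which brings sodium, potassium and chloride into the cell together. It had 136 reads in Control and 890 in TGS24, a 3.37-fold difference with a log2 ratio of 1.75 and an interval from 1.39 to 2.15. That was the highest ratio of any member. SLC4A7 encodes NBCn1, a sodium-coupled bicarbonate importer that raises the pH of the cell and is known for this role in breast cancer cells. It had 264 and 1382 reads, a ratio of 1.44 (1.17 to 1.72). SLC26A2, a sulfate carrier, had 6 and 44 reads. Its ratio of 1.72 had an interval from 0.19 to 4.31, so its size is poorly known. After centring SLC12A2 was at 1.16 and still passed, while SLC4A7 was at 0.65 and SLC26A2 at 1.06 with an interval that holds 0.

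The 2 lower genes of the group were SLC4A3 and SLC24A3. SLC4A3 encodes the chloride/bicarbonate exchanger AE3, which moves bicarbonate the other way from NBCn1. It had 89 reads in Control and 57 in TGS24, although TGS24 held more reads in all, and its ratio was -1.55 (-2.32 to -0.88). SLC24A3, a potassium-dependent sodium/calcium exchanger, had 26 and 10 reads, a ratio of -2.06 (-4.17 to -0.74). It was the lowest of all members before centring. SLC24A3 and SLC26A2 are among the 15 members with a normalized value under 10 in 1 library and reached the selection through the library where they are high, so a difference between the libraries is built into their place here. The authors' deposited table of calls gave it a log2 value of -2.32.

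Other carriers of the group did not pass the rule. SLC12A4 encodes KCC1, a potassium-chloride exporter that works against NKCC1 on cell chloride. It had 218 and 250 reads and a ratio of -0.74 (-1.13 to -0.36). After centring it was at -0.35, with an interval from -0.74 to 0.03 that holds 0. SLC20A1, a sodium-coupled phosphate importer, had the most reads of the group, 926 and 2643, with a ratio of 0.57 (0.41 to 0.72).

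The SLC4 family, which carries bicarbonate, had 6 members, and SLC4A7 was the only one above 0 before centring. SLC4A2, the widely expressed anion exchanger AE2, had 25 and 37 reads and a ratio of -0.36 (-1.49 to 0.78), but 13.8% of its exon bases overlap genes on the other strand, CDK5 among them, and the handling of strand is not stated. SLC4A4, the electrogenic sodium bicarbonate carrier NBCe1, had 21 and 15 reads, and its ratio of -1.29 had an interval from -3.00 to 0.06. SLC4A11 had 40 and 42 reads and a ratio of -0.84 (-1.83 to 0.08). Apart from SLC4A3 and SLC4A7, every interval of the family held 0. In the SLC12 family of 7 members 3 were above 0 and 4 below. SLC12A7 (KCC4) had 18 and 23 reads and a ratio of -0.54 (-1.98 to 0.85), and SLC12A9 had 20 and 32 reads and a ratio of -0.25 (-1.50 to 1.03).

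Metal carriers had 19 members and a median ratio of 0.58, which became -0.14 after centring within GC classes. In the group 5 were higher, 1 was lower and 13 were neither, beside 15.1% higher and 6.62% lower among protein-coding genes. After centring 1 was higher and 1 lower, beside 5.86% higher and 6.24% lower among protein-coding genes centred alike. Carriers of the SLC30 family move zinc out of the cytosol, across the plasma membrane or into organelles, and those of the SLC39 family move zinc into it. All 6 SLC30 members had ratios above 0, and 4 passed the rule, while 6 of the 8 SLC39 members had ratios below 0. GC content had a median of 38.5% over the SLC30 genes, and 31.2% of protein-coding genes under 45% GC were higher. After centring none of the 6 passed the rule, the family's median moved from 1.09 to 0.34, and SLC30A6 and SLC30A7 were both at -0.17. SLC30A1 encodes ZnT1, the zinc exporter of the plasma membrane. It had 97 reads in Control and 396 in TGS24, a ratio of 1.07 (0.62 to 1.57), and 0.28 after centring. SLC30A4, which loads zinc into vesicles, had 36 and 220 reads and a ratio of 1.63 (0.94 to 2.47), and 0.97 after centring. SLC30A5, a zinc carrier of the early secretory pathway, had 92 and 405 reads and a ratio of 1.18 (0.72 to 1.69), and 0.52 after centring. SLC30A9, a zinc carrier of mitochondria, had 17 and 74 reads and a ratio of 1.12 (0.08 to 2.45), and 0.41 after centring.

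The remaining SLC30 members were SLC30A7 of the Golgi and SLC30A6, which works in a pair with the SLC30A5 protein. SLC30A7 had 137 and 426 reads and a ratio of 0.69 (0.29 to 1.11). SLC30A6 had 32 and 96 reads and a ratio of 0.62, with an interval from -0.20 to 1.56 that holds 0. The family as a whole had 411 reads in Control and 1617 in TGS24.

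**Figure D3:**
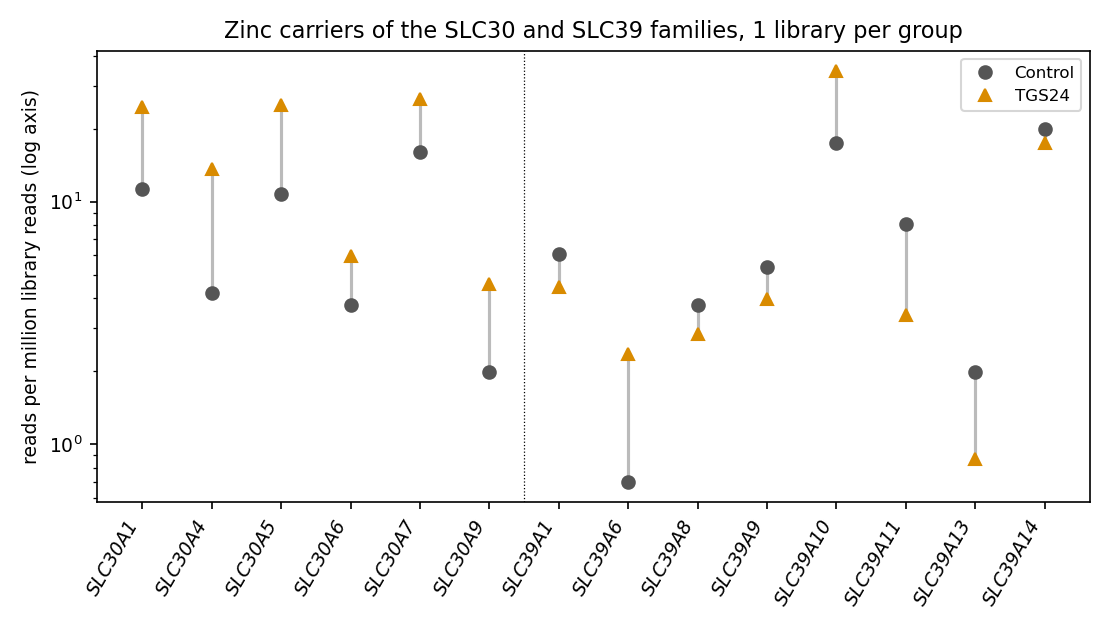
Reads per 1000000 library reads (y axis, log scale) of the 6 SLC30 and 8 SLC39 zinc carriers (x axis) in Control (circles) and TGS24 (triangles), 1 library each, with a grey line joining the libraries. TGS24 lies above Control for each SLC30 gene, and for SLC39A6 and SLC39A10 alone among the SLC39 genes.

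In the SLC39 family, SLC39A11 was the only gene past the rule. It had 69 reads in Control and 55 in TGS24, a ratio of -1.23 (-2.05 to -0.51). SLC39A10 and SLC39A6 encode ZIP10 and ZIP6, zinc importers of the plasma membrane that can act as a pair. SLC39A10 had the most reads of the family, 149 and 557, and its ratio of 0.95 (0.58 to 1.35) was just under 2-fold. After centring it was at 0.16 (-0.21 to 0.55). SLC39A6 had 6 and 38 reads, and its ratio of 1.52 had an interval from -0.05 to 4.12. SLC39A14, an importer of zinc, iron and manganese, had 171 and 281 reads and a ratio of -0.23 (-0.63 to 0.18). SLC39A13 had 17 and 14 reads and a ratio of -1.09 with an interval from -2.90 to 0.40. SLC39A8, SLC39A9 and SLC39A1 had between 32 and 52 reads in Control and between 46 and 72 in TGS24, with ratios from -0.46 to -0.40 and intervals that hold 0. SLC39A9 overlaps ERH on the other strand over 5.23% of its exon bases. The SLC39A1 value is uncertain, because 70.7% of its 100-base windows also occur in another annotated transcript.

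SLC30A1 is a known target of the metal-sensing factor MTF1, which binds metal response elements. The 250 bases before the start of the 4 SLC30 genes past the rule are shown for that reason, from RefSeq on GRCh38.p14, 5′ to 3′ on the gene's own strand. Capitals mark the core of a metal response element, TGCACNC or TGCGCNC, searched on both strands with no other motif searched. The windows are chr1:211579162-211579411 on the minus strand for SLC30A1, chr15:45522756-45523005 on the minus strand for SLC30A4, chr5:69093764-69094013 on the plus strand for SLC30A5 and chr4:41990280-41990529 on the plus strand for SLC30A9.
SLC30A1: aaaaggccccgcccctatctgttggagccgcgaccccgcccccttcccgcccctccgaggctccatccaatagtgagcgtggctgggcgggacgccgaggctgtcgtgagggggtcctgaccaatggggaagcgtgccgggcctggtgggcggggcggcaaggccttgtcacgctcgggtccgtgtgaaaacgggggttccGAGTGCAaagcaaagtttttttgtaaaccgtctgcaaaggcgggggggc
SLC30A4: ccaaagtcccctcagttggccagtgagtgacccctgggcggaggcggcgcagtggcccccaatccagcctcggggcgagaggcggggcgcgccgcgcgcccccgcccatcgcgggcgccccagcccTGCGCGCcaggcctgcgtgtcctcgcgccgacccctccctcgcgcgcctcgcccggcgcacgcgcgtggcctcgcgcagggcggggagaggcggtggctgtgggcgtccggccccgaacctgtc
SLC30A5: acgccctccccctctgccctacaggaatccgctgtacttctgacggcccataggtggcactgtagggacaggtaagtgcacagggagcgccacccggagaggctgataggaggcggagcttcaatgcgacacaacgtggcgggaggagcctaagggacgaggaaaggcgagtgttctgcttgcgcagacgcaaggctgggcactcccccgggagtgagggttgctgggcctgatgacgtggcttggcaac
SLC30A9: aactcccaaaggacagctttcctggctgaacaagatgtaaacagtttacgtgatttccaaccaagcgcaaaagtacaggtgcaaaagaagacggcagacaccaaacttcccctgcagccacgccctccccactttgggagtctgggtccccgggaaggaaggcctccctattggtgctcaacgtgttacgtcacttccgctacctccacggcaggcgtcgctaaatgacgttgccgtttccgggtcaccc
SLC30A1 held 1 core, beginning 49 bases before the start and read from the opposite strand. SLC30A4 held 1 core, beginning 124 bases before the start. No core was found in the windows of SLC30A5 and SLC30A9. A core occurred in 24.7% of 27305 RefSeq windows of this length, and in 24 of the 92 members with a window (26.1%), so a match is common and is only a description. MTF1 itself had 353 and 525 reads with a ratio of -0.37 (-0.65 to -0.09). Of the metal-binding metallothioneins, which MTF1 also drives, MT2A had 4 and 6 reads and MT1X had 4 and 0, too few for a ratio.

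Of the other metals, copper, iron and magnesium had carriers with reads. SLC31A1 encodes CTR1, the main copper importer of the cell. It had 81 reads in Control and 352 in TGS24, a ratio of 1.16 (0.67 to 1.70). SLC11A2 encodes DMT1, which brings ferrous iron into the cytosol, and had the most reads of the metal carriers. Its 311 and 899 reads gave a ratio of 0.58 (0.32 to 0.86). SLC41A1, a magnesium carrier, had 203 and 284 reads and a ratio of -0.46 (-0.84 to -0.08).

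The SLC25 family, which lies mostly in the inner mitochondrial membrane, had 19 members. They had a median ratio of 0.10, which became 0.06 after centring. In the family 2 were higher, 2 lower and 15 neither, beside 15.1% higher and 6.62% lower among protein-coding genes. SLC25A36, a carrier of pyrimidine nucleotides, had 20 reads in Control and 110 in TGS24, with a ratio of 1.45 (0.53 to 2.65). SLC25A40, a carrier tied to mitochondrial glutathione, had 53 and 236 reads and a ratio of 1.19 (0.59 to 1.88). Both lower genes encode carriers that exchange metabolites of the citric acid cycle with the cytosol. SLC25A11, the oxoglutarate/malate carrier, had 907 and 858 reads, a ratio of -1.02 (-1.22 to -0.83). SLC25A1, the citrate carrier, had 125 and 112 reads, a ratio of -1.09 (-1.65 to -0.56). On the scale of library totals alone, SLC25A11 was at -0.99 and short of the rule. After centring none of the 4 passed, with SLC25A36 at 0.66, SLC25A40 at 0.34, SLC25A11 at -0.59 and SLC25A1 at -0.66.

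Carriers that feed oxidative phosphorylation, the group's most read genes, had ratios near 0. SLC25A5 had 5064 and 10444 reads and a ratio of 0.10 (0.03 to 0.17). SLC25A3, the phosphate carrier, had 2000 and 4393 reads and a ratio of 0.19 (0.08 to 0.30). SLC25A6, a second ADP/ATP carrier, was at the edge of the selection with 8 and 26 reads. The SLC25A5 value carries a doubt, because 9 rows of SLC25A5 pseudogenes in the same table held 767 and 1058 reads. The sources used here do not state how reads that fit several places were treated. Of the 100-base windows of SLC25A5, 0% also occurred in another annotated transcript, and shorter windows were not searched. The malate-aspartate shuttle also uses SLC25A12 and SLC25A13, the aspartate/glutamate carriers. SLC25A12 had 131 and 383 reads and a ratio of 0.60 (0.19 to 1.03), and SLC25A13 had 212 and 515 reads and a ratio of 0.33 (0.00 to 0.68), both above 0 while their shuttle partner SLC25A11 was below it.

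The rest of the SLC25 family had ratios between -0.43 and 0.95. SLC25A46, an outer membrane protein of the family that acts in mitochondrial shape, had 114 and 428 reads. Its ratio of 0.95 (0.54 to 1.41) was just under 2-fold, and became 0.10 (-0.32 to 0.56) after centring. The mitoferrins, which carry iron for haem and iron-sulfur clusters, were below 0 before centring. SLC25A28 had 1089 and 1773 reads and a ratio of -0.24 (-0.40 to -0.09), and SLC25A37 had 62 and 106 reads and a ratio of -0.17 (-0.84 to 0.52). After centring SLC25A28 was at 0.10 (-0.05 to 0.26) and SLC25A37 at 0.02 (-0.65 to 0.70), both with intervals that hold 0. SLC25A39, the partner of SLC25A40 in glutathione import, had 84 and 124 reads and a ratio of -0.38 (-0.97 to 0.22), which became 0.05 after centring. SLC25A20, which exchanges carnitine for acylcarnitine in fatty acid oxidation, had 36 and 52 reads and a ratio of -0.40 (-1.34 to 0.54).

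**Figure D4:**
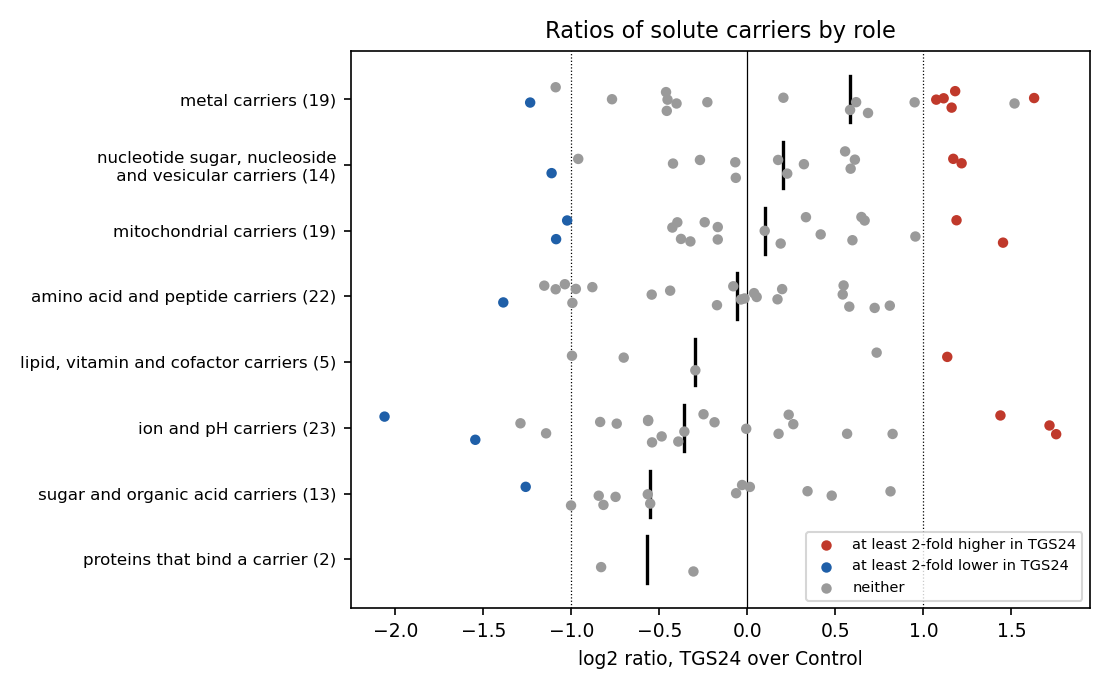
Log2 ratio of TGS24 over Control (x axis) for each member, in rows by role with the number of members in parentheses. Points are genes coloured by the 2-fold rule, short vertical bars are group medians and dotted lines mark a 2-fold difference. Medians run from -0.57 for the proteins that bind a carrier to 0.58 for the metal carriers before centring by GC class, and all groups with 5 or more members hold ratios on both sides of 0.

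Amino acid and peptide carriers, 22 members, had 1 lower gene and no higher one, beside 6.62% lower and 15.1% higher among protein-coding genes. Their median was -0.06. After centring it was -0.17, with 3 members lower and none higher, beside 6.24% lower and 5.86% higher among protein-coding genes centred alike. Of these 3, SLC7A2 had 17 and 14 reads and SLC1A2 had 26 in each library. The lower gene before centring was SLC43A2, which encodes LAT4, a sodium-independent carrier of branched-chain amino acids. It had 180 reads in Control and 131 in TGS24, a ratio of -1.39 (-1.89 to -0.93). SLC38A2 had the most reads of the group, 1731 and 5506, with a ratio of 0.72 (0.61 to 0.84). SLC7A5 encodes LAT1, the exchanger that supplies large neutral amino acids to growing cells. Its 692 and 1529 reads gave a ratio of 0.20 (0.01 to 0.39).

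LAT1 reaches the membrane only in a pair with the heavy chain encoded by SLC3A2, as does the cystine/glutamate exchanger xCT encoded by SLC7A11. SLC3A2 had 23 and 32 reads, or 0.52 and 0.38 RPKM, against 17.02 and 19.96 for SLC7A5 on the same scale. Its ratio was -0.44 with an interval from -1.65 to 0.76. SLC7A11 had 120 and 407 reads and a ratio of 0.81 (0.39 to 1.26), under the 2-fold rule. After centring it was at -0.04 (-0.46 to 0.41). SLC1A4, a sodium-coupled exchanger of alanine, serine and cysteine, was at the other end with 241 and 235 reads and a ratio of -0.97 (-1.36 to -0.60). Carriers of taurine (SLC6A6), glycine (SLC6A9), creatine (SLC6A8) and glutamate (SLC1A3) had ratios between -0.17 and 0.17, each with an interval that holds 0.

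The SLC38 family of glutamine and neutral amino acid carriers had 6 members and a median of 0.30, with none past the rule. SLC38A9, the arginine sensor of the lysosome that signals to mTORC1, had 76 reads in Control and 220 in TGS24, a ratio of 0.58 (0.04 to 1.16). SLC38A4 had 185 and 337 reads and a ratio of -0.08 (-0.45 to 0.30). Of the other light chains that pair with SLC3A2, SLC7A6 had 98 and 276 reads and a ratio of 0.54 (0.07 to 1.05), and SLC7A7 had 27 and 24 reads and a ratio of -1.04 (-2.37 to 0.12). The SLC7A6 value is uncertain, since 55.6% of its exon bases overlap SLC7A6OS on the other strand and the handling of strand is not stated.

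Sugar and organic acid carriers, 13 members, had a median of -0.55, and -0.21 after centring. Beside 15.1% higher and 6.62% lower among protein-coding genes, no gene of the group was higher and 1 was lower. That gene, SLC5A9, a sodium-coupled sugar carrier, had 28 reads in Control and 21 in TGS24, with a ratio of -1.26 (-2.67 to -0.10), and -0.95 after centring. SLC2A1 encodes GLUT1, the main glucose importer of many cancer cells, and had the most reads of the group. Its 827 and 947 reads gave a ratio of -0.75 (-0.94 to -0.56), below 0 but under 2-fold. SLC16A1 encodes MCT1, which moves lactate together with a proton, and had 65 and 222 reads with a ratio of 0.81 (0.25 to 1.44). SLC22A23, a relative of the organic ion carriers, had 369 and 484 reads and a ratio of -0.55 (-0.84 to -0.27). The other glucose and fructose carriers of the SLC2 family were near the threshold. SLC2A3 (GLUT3) had 12 and 22 reads with a ratio of -0.06 (-1.63 to 1.65), and shares 6.19% of its 100-base windows with SLC2A14. SLC2A5, the fructose carrier, had 16 reads in each library and a ratio of -0.84 (-2.56 to 0.67).

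Carriers of nucleotide sugars, nucleosides and related substrates of the Golgi and endoplasmic reticulum, 14 members, had a median of 0.20. Of them 2 were higher and 1 lower, beside 15.1% higher and 6.62% lower among protein-coding genes. After centring the median was 0.22, with none higher and 1 lower (SLC35B1), beside 5.86% higher and 6.24% lower among protein-coding genes centred alike. SLC33A1 brings acetyl-CoA into the endoplasmic reticulum. It had 122 reads in Control and 532 in TGS24, a ratio of 1.17 (0.77 to 1.61), but 20.49% of its 100-base windows also occur in another annotated transcript, so its reads are uncertain. SLC35F5 had 68 and 308 reads and a ratio of 1.22 (0.69 to 1.81). SLC35A2, which brings UDP-galactose into the Golgi, had 134 and 118 reads and a ratio of -1.11 (-1.66 to -0.60). After centring none of the 3 passed, with SLC33A1 at 0.46, SLC35F5 at 0.51 and SLC35A2 at -0.70. SLC35E1 had the most reads of the group, 417 and 666, and a ratio of -0.27 (-0.52 to -0.01). SLC35B1, which exchanges ATP for ADP across the endoplasmic reticulum membrane, had 70 and 68 reads, and its ratio of -0.96 (-1.71 to -0.26) was just under 2-fold. SLC35B2 and SLC35B3 both carry the sulfate donor PAPS into the Golgi. SLC35B2 had 62 and 114 reads and a ratio of -0.07 (-0.72 to 0.61), and SLC35B3 had 58 and 172 reads and a ratio of 0.61 (0.00 to 1.28). SLC29A1, the nucleoside carrier ENT1 of the plasma membrane, had 25 and 72 reads and a ratio of 0.56 (-0.38 to 1.64).

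Lipid, vitamin and cofactor carriers had 5 members, of which 1 was higher and none lower, beside 15.1% higher and 6.62% lower among protein-coding genes. Their median was -0.30, and -0.11 after centring. SLC44A1, a choline carrier that supplies the synthesis of phosphatidylcholine, had 637 reads in Control and 2699 in TGS24, a ratio of 1.14 (0.96 to 1.32), and 0.43 after centring. It had the most reads of the 13 members that were higher. SLC23A2, a sodium-coupled ascorbate carrier, had 266 and 417 reads and a ratio of -0.30 (-0.62 to 0.03). SLC27A4, a protein of fatty acid uptake, had 98 and 115 reads and a ratio of -0.70 (-1.29 to -0.13). The proteins that bind a carrier had 50 and 53 reads (SLC9A3R1, ratio -0.83, interval -1.71 to -0.01) and 26 and 40 reads (SLC4A1AP, ratio -0.31, interval -1.40 to 0.81).

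Of the 96 members that passed in neither direction, 68 had an interval that holds 0, 17 had one above 0 and 11 had one below 0. Of those 68, 8 had a ratio past 2-fold, 1 higher and 7 lower, so their differences were not detectable at this depth. Some members with few reads are best known from other tissues, and were named after their values were seen. SLC4A1, the anion exchanger of red cells, had 27 and 39 reads. SLC6A2 and SLC6A3, the noradrenaline and dopamine carriers of neurons, had 21 and 19 and 15 and 19.

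The 13 higher members had between 34.2% and 44.01% GC, and the 8 lower members between 49.9% and 65.6%, so these small groups do not overlap. Among all protein-coding genes the calls did overlap in GC content. There 2.61% of genes under 45% GC were lower, and 5.70% of those from 45% to under 55% were higher. Spearman's rho between GC content and ratio was -0.57 over the 117 members and -0.74 over the 73 with at least 100 reads, and Pearson's r was -0.57 and -0.72. The genes share both libraries and their depth, so these are descriptions. Over the other 7256 protein-coding genes with GC content rho was -0.54. Of 46 members under 45% GC, 28.3% were higher, against 31.2% of all protein-coding genes of that GC content. Of 37 members with at least 55% GC, 13.5% were lower, against 13.4%. The part of GC content in the differences was not tested.

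**Figure D5:**
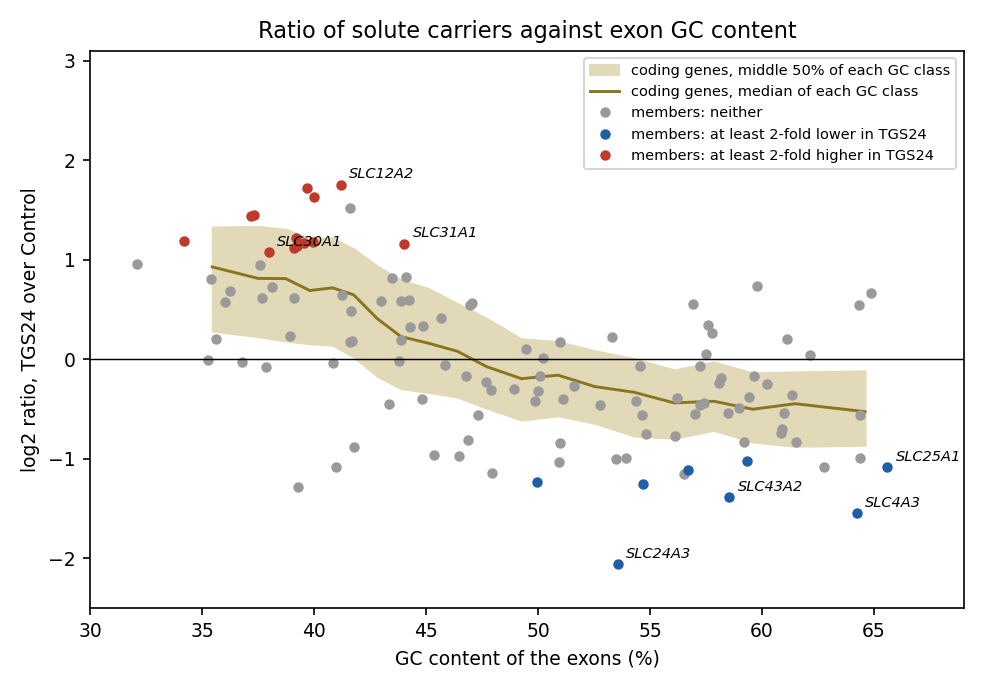
Log2 ratio of TGS24 over Control (y axis) against exon GC content in percent (x axis) for the 117 members, coloured by the 2-fold rule. The line and band are the median and middle 50% of all protein-coding genes in 20 classes of GC content. The 13 higher members lie under 45% GC, and the 8 lower members lie at 49.9% GC or more.

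After centring within GC classes, SLC12A2 (1.16) and SLC31A1 (1.03) were the higher genes. SLC24A3 (-1.75), SLC4A3 (-1.12), SLC39A11 (-1.05) and SLC43A2 (-1.04) were among the lower ones, joined by SLC4A4 (-2.00), SLC7A2 (-1.68), SLC1A2 (-1.42) and SLC35B1 (-1.05), which had not passed before. SLC4A4 had 21 and 15 reads, and SLC7A2 had 17 and 14. Like SLC24A3, these 2 genes had a normalized value under 10 in TGS24 and reached the selection through Control. A difference between the libraries is thus built into the place of these genes here. The other 11 higher members and 4 of the 8 lower ones fell short. SLC38A2 moved from 0.72 to -0.07.

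Carriers that go by other symbols and partners of carriers were described from lists set with earlier results of these data known. Of 18 carriers under other symbols 11 had at least 20 reads, with 1 higher, none lower and a median of -0.28. Among all tested genes 12.7% were higher and 6.31% lower. After centring the list's median was -0.12. XPR1, the phosphate exporter, had 513 reads in Control and 2075 in TGS24, with a ratio of 1.07 (0.87 to 1.27), beside 0.57 for the phosphate importer gene SLC20A1. After centring XPR1 was at 0.41 and no longer passed, and SLC20A1 was at 0.56. ANKH, which exports pyrophosphate, had 485 and 1110 reads and a ratio of 0.25 (0.03 to 0.47). MPC1, a subunit of the mitochondrial pyruvate carrier, had 169 and 240 reads and a ratio of -0.44 (-0.85 to -0.02).

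Of 20 partners and regulators 18 were measured, with 2 higher, 1 lower and a median of -0.03. The shares among all tested genes were 12.7% higher and 6.31% lower. After centring the list's median was 0.29, without TXNIP, which had no GC content to centre on. WNK1 encodes the kinase at the head of the pathway that switches NKCC1 on. It had 425 and 2016 reads and a ratio of 1.30 (1.09 to 1.52), and 1.48 after centring by GC class. The kinases between them had lower ratios, 0.21 (-0.04 to 0.46) for STK39 and 0.66 (0.48 to 0.84) for OXSR1. NFE2L2 encodes NRF2, a factor that drives SLC7A11. Its 122 and 503 reads gave a ratio of 1.09 (0.69 to 1.53), just short of the rule after centring, at 0.999. SLC7A11 was at -0.04 after centring. TXNIP, which promotes the removal of GLUT1 from the surface, had 70 and 59 reads and a ratio of -1.16 (-1.95 to -0.44).

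The most read regulators did not pass the rule. ATF4, which drives amino acid carriers under amino acid shortage, had 3622 and 6468 reads and a ratio of -0.11 (-0.19 to -0.03). After centring ATF4 was at 0.31 (0.22 to 0.39), so its direction depends on the centring. HIF1A, which drives SLC2A1 under low oxygen, had 999 and 3641 reads and a ratio of 0.92 (0.78 to 1.07), which became 0.07 after centring. RRAGC, a GTPase by which amino acids reach mTORC1, had 1345 and 3822 reads and a ratio of 0.56 (0.43 to 0.69).

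The authors' deposited table of called genes holds 900 of the 17133 filtered rows, or 5.25%. It lists 14 symbols that start with SLC, 4 as higher and 10 as lower, and 1 of them, SLC24A3, is among the 117 members. The normalized values of the other 13 summed to at most 15.6.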

How the data were processed

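RNA was measured in 2 libraries of MDA-MB-231 spheroids, 1 Control and 1 TGS24, grouped by their titles. Tools listed in the submitters' processing notes, with no role or order, are featureCounts 1.5.2, STAR, Bowtie2 2.2.4, DESeq2 and Trimmomatic, and the build listed is hg19. The sources used here do not state how strand and reads that fit several places were handled, or the annotation release.

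The deposited tables hold, per gene and library, a normalized signal, and its steps show counts of reads scaled by a constant for each library. Dividing by the value of 1 read (0.969 in Control, 0.506 in TGS24) left whole numbers of reads for 99.93% and 99.94% of values above 0 (relative tolerance 1e-06). The deposited fold change (a ratio) and its deposited log2 value in the table of called genes come from the authors. The design had assumed counts, and the tables hold normalized values, so recovered reads were used. A count test has no replicates to work on, and none was run. Left out were 49 rows that repeat an identifier, are not whole reads or differ between tables. None was a member.

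Reads were scaled with TMM factors (edgeR 4.0.16, R 4.3.3) over 10080 genes with at least 20 reads. Log2 ratios used a prior count of 2. Intervals are 95% Clopper-Pearson intervals on read pairs, since 75.3% and 73.5% of counts above 0 were even. They cover counting error only, and PCR reads without molecular identifiers are not independent molecules. Levels per kilobase used library totals and the exon length of GENCODE v29 (GRCh38), matched by Ensembl identifier, which also gave GC content, exon overlap and shared 100-base windows. Over 5% of windows were shared in 4 members (SLC39A1, SLC33A1, SLC25A33, SLC2A3), and over 20% of exon bases overlapped another gene in 3 (SLC7A6, SLC39A1, SLC33A1). Promoter windows were matched by symbol for 92 of 117 members. Alternatives were DESeq2 1.42.0 median-of-ratios factors, library totals, other filters, a prior count of 8, intervals on reads and centring in 20 GC classes. Steps were tested on simulated data. Calculations used Python 3.11.15, numpy 2.4.6, scipy 1.17.1 and pandas 2.3.3, with plots by matplotlib 3.10.9.

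The members and gene lists were chosen with earlier results of these data known. Genes are named when past the 2-fold rule, when among the 2 with the most reads in a role or the 3 in a related list, or when at the threshold. Others were named after their values were seen, for their place in a pathway. Single values of some members are not reported here.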

Additional observations from a re-analysis of the deposited data

How the results depend on the processing

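No member changed sign while past the 2-fold rule under any of the 8 alternatives, and 4 members, SLC12A2, SLC39A11, SLC43A2 and SLC4A3, passed the rule under all of them. The count of 13 higher members became 8 when scaling and ratios used genes with at least 100 reads, where SLC31A1, SLC44A1 and SLC30A1 came out under 1, the last 2 of them at 0.97 and 0.91, and 2 of the 13 were not measured. It became 2 after centring within GC classes. The count of 8 lower members became 4 with no filter on low counts when scaling, which left SLC25A11, SLC25A1, SLC35A2 and SLC5A9 short of the rule, and 15 with intervals on reads. SLC30A9 fell short at 0.97 with a prior count of 8. With no filter the members' median was 0.080, and the median of all tested genes shifted to 0.16, so the members stood below it as before. With at least 100 reads the members' median was 0.009, above the -0.010 of all tested genes. All other alternatives kept both counts within 1.5 times. No paired analysis was possible because each group holds 1 library. Depth limits the 44 members under 100 reads, of which 4 passed the rule.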
